A study of Mus musculus with 9 samples.

Results

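The mitochondrial ribosomal protein genes are the nuclear genes whose symbols begin with Mrpl, for the large subunit of the mitochondrial ribosome, or Mrps, for its small subunit. They were taken as every listed gene name made of Mrpl or Mrps followed by a number and, where present, a letter from a to c. This gave 78 of the 42454 names listed, 49 with a large subunit name and 29 with a small subunit name, and all 78 were measured in every tumour with at least 688 counts. The RNA came from whole tumours taken at day 21 from C57BL/6J mice carrying MC38 cells, a mouse colorectal carcinoma line. In 5 tumours (CD43-KO) the implanted cells had CD43 knocked out, and in 4 tumours (Vec) they were vector controls labelled wild type. The labels do not say how the knockout was made or whether the cells were a single clone, and they give no age, sex, batch or pairing. The mice are not described as lacking CD43, so host leukocytes in the tumours could also express it. The labels name no separate cultures, so p-values measure only the spread between these tumours. Spn, which encodes CD43, was at 25.6, 33.6, 31.2, 22.97 and 6.81 CPM in CD43-KO replicates 1 to 5, against 41.04, 43.7, 44.6 and 53.8 CPM in Vec replicates 1 to 4, where CPM are counts scaled to library size with TMM factors. Every CD43-KO tumour lay below every Vec tumour, replicate 5 by the most, and no CD43-KO tumour was without Spn counts. Its means were 24.04 ± 10.5 CPM in CD43-KO tumours and 45.8 ± 5.56 CPM in Vec tumours (SD, n = 5 and 4; -0.93 ± 0.36 log2, edgeR adjusted p = 0.28).

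Mitochondria keep their own ribosome, which descends from a bacterial one and makes the few proteins that the mitochondrial genome encodes, all of them core subunits of the respiratory chain and the ATP synthase. Its RNAs come from the mitochondrial genome, while all of its proteins are encoded in the nucleus, made in the cytosol and imported. Some of these proteins have bacterial relatives, and others are found only in mitochondria. The large subunit forms the peptide bond and holds the exit tunnel, and the small subunit holds the messenger RNA and decodes it. In the assembled mammalian ribosome the products of Mrps18a and Mrps30 sit in the large subunit despite their names. The product of Mrps36 is now placed in the oxoglutarate dehydrogenase complex rather than in the ribosome.

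Promoters of such genes are known for binding sites of NRF-1, a factor named for nuclear genes of respiration. Sites of ETS factors such as GABP are also known there. The letters upstream of some of the genes described below are shown first. The sequences are the 250 bases before the annotated start in RefSeq, build GRCm38.p6, and 69 of the 78 genes had one. Capitals mark matches on either strand to GCGCATG (NRF-1), CCGGAAG (ETS), AAGATGG (YY1) or GGGCGG (SP1). In Mrpl17 an ETS and an SP1 match overlap, and in Mrpl9 the NRF-1 letters match on both strands in 1 palindrome. Mrpl49, Mrpl43 and Mrpl17 are among the genes with the smallest p below, and each of them holds matches. Of the others in that set, Mrpl24, Mrps30 and Mrpl28 had no match to any of these letters. Mrpl23 had SP1 matches alone, and Mrps35 had no sequence. Mrps22 is the gene with the smallest p among those with a higher mean in CD43-KO tumours, and Mrpl9 shows the palindrome.
Mrpl49 (chr19:6057756-6058005, - strand): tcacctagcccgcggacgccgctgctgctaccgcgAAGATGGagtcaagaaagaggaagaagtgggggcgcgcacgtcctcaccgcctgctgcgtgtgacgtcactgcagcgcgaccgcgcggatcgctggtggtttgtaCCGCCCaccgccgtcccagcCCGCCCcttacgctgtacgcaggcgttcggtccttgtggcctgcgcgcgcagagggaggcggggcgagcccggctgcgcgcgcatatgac
Mrpl43 (chr19:45006443-45006692, - strand): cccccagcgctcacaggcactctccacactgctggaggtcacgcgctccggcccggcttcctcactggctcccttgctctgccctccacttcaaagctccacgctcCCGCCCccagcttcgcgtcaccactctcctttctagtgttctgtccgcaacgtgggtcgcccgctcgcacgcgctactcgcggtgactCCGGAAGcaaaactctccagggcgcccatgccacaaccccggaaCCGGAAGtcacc
Mrpl17 (chr7:105811088-105811337, - strand): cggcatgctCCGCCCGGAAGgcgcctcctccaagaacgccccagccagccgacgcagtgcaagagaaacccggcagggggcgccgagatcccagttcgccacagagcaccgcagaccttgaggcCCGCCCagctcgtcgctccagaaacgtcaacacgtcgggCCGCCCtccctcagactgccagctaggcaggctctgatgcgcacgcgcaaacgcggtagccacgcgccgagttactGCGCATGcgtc
Mrps22 (chr9:98601680-98601929, - strand): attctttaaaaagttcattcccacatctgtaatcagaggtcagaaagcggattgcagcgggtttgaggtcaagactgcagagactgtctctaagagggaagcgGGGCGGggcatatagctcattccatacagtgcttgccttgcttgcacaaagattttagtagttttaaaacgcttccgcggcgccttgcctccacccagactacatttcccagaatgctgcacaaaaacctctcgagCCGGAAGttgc
Mrpl9 (chr3:94443086-94443335, + strand): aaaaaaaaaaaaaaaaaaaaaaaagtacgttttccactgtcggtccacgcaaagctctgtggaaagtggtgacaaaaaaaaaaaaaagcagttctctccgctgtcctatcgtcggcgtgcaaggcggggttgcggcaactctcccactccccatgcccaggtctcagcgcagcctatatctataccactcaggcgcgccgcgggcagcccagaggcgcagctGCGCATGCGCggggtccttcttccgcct
The ETS letters stood in 17 of the 69 promoters, or 24.6%, against 9.13% of 17492 promoters of protein-coding genes of the same length. The NRF-1 letters stood in 8 of 69 (11.6%, against 4.01%) and those of YY1 in 6 of 69 (8.70%, against 4.10%). Those of SP1 stood in 33 of 69 (47.8%, against 42.7%). By subunit name, the NRF-1 letters stood in 7 of 43 large (16.3%) and 1 of 26 small subunit promoters (3.85%). Those of SP1 stood in 17 of 43 large (39.5%) and 16 of 26 small (61.5%). For ETS the large and small shares were 25.6% and 23.1%, and for YY1 9.30% and 7.69%. These are letter matches and not sites of binding. The median log2 fold change was -0.13 in the 17 genes with the ETS letters and -0.12 in the 52 without. All 8 genes with the NRF-1 letters lay below 0, with a median of -0.11. Of the 61 without them 48 lay below 0, with a median of -0.13. For the YY1 letters the median was -0.0022 in the 6 genes with them, 4 of which lay below 0. In the 63 without them the median was -0.13, and 52 lay below 0. For SP1 the median was -0.13 in the 33 with and -0.11 in the 36 without.

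Transcripts of the mitochondrial ribosome had lower means in CD43-KO tumours for most genes, by small amounts, and no gene passed the edgeR test. CD43-KO replicate 3 and Vec replicate 4 stood apart from their groups, with higher levels of most of these genes. All 78 genes were among the 18243 names that passed a filter on low counts, over which edgeR's quasi-likelihood test was run, with p-values adjusted by Benjamini-Hochberg and called under 0.05. It called 0 of the 78 genes and 0% of all genes tested, and the smallest adjusted p was 0.192 for the 78 genes and 0.0706 over all. At an unadjusted p under 0.05 it gave 8 genes with a lower mean in CD43-KO tumours, or 8 of 78, where 7.63% of all genes tested were lower, and 0 with a higher mean, where 7.75% were higher. The share of 8 in 78 is near the background. DESeq2 called 1 of the 78 lower, Mrpl49, and 0 higher, where it called 2.18% of genes lower and 1.48% higher. With voom (limma, libraries weighted by quality) Mrpl49 and Mrpl24 were called lower and 0 higher, where 2.04% of genes were called lower and 1.04% higher.

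The direction was shared more widely than the calls. Of the 78 genes, 64 had a log2 fold change (CD43-KO over Vec) below 0 and 14 above 0, so 82.1% lay below 0 against 46.0% of all genes tested. The values ran from -0.40 for Mrpl17 to 0.28 for Mrps18c, with a median of -0.13, against 0.03 over all genes. A single tumour moved this median far in either direction, to -0.22 without CD43-KO replicate 3 and to -0.04 without Vec replicate 4. In 36 of the 78 the standard error was larger than the change. The 8035 other genes with a mean level within the range of the 78 had a median of 0.00023 and lay below 0 in 49.97%. The genes are measured in the same 9 libraries and are not independent of each other. RNA of whole tumours cannot tell fewer cells of a type from less RNA per cell.

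**Figure D1:**
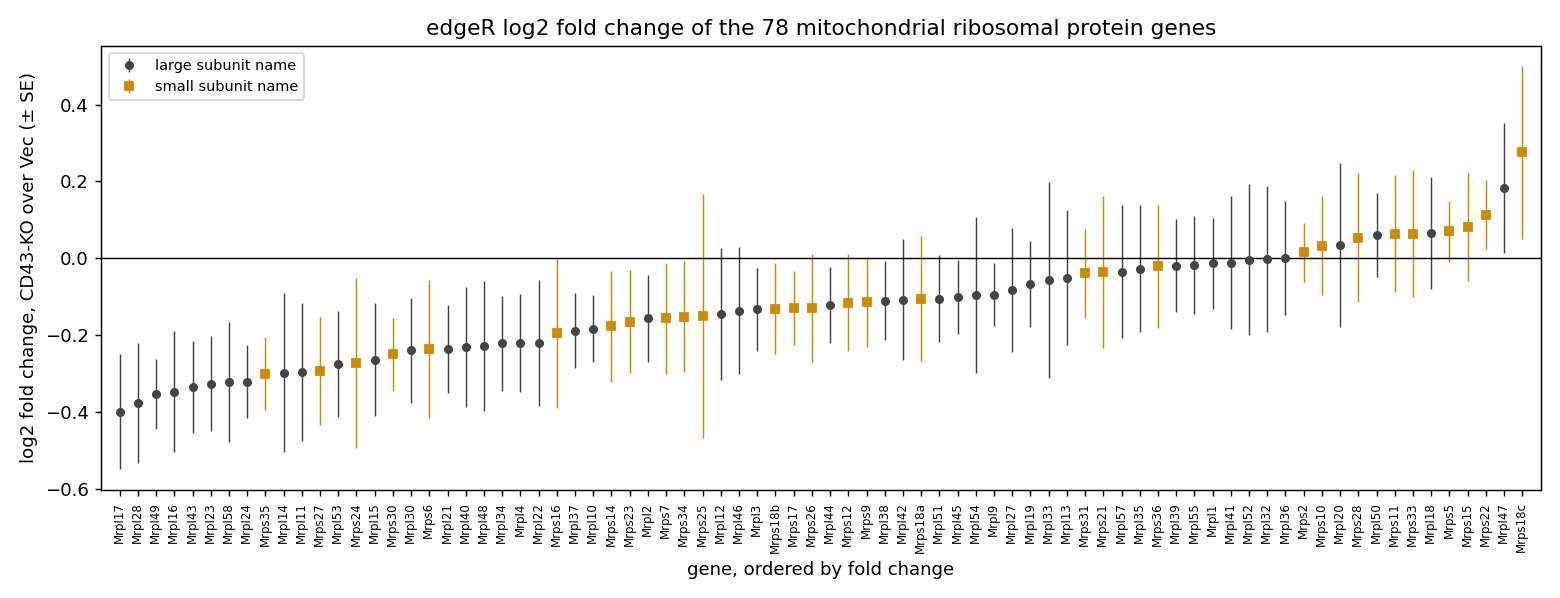
Log2 fold change of each of the 78 genes (y axis, CD43-KO over Vec, bars are the standard error of the edgeR fit), ordered from lowest to highest, with circles for large and squares for small subunit names. The values run from -0.40 for Mrpl17 to 0.28 for Mrps18c, and 64 lie below 0.

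Mrpl49 separated the groups most clearly. It encodes a large subunit protein that has no bacterial relative and lies on chromosome 19, 6053622 to 6057785 (GRCm38, minus strand, GENCODE M21). Its level was 37.5, 35.4, 39.3, 36.8 and 36.7 CPM in CD43-KO replicates 1 to 5, against 45.5, 43.7, 45.4 and 55.1 CPM in Vec replicates 1 to 4. All 5 CD43-KO tumours lay below all 4 Vec tumours, and Vec replicate 4 stood above the other Vec tumours. The means were 37.1 ± 1.42 CPM in CD43-KO tumours and 47.4 ± 5.20 CPM in Vec tumours (SD, n = 5 and 4), with a log2 fold change of -0.35 ± 0.09 (SE, edgeR adjusted p = 0.192, DESeq2 adjusted p = 0.0239). A two-sided exact permutation test over every split of the 9 tumours into 5 and 4 gave p = 0.00794, the smallest it can give. Over the alternatives the log2 fold change of Mrpl49 lay between -0.39 and -0.26. Mrpl49 starts 59 bases from Fau, on the opposite strand, and its exons overlap those of Syvn1, also on the opposite strand. Fau, which encodes a cytosolic small subunit protein, was at 952 ± 163 CPM in CD43-KO tumours and 1572 ± 387 CPM in Vec tumours (-0.72 ± 0.17 log2, edgeR adjusted p = 0.175), and Syvn1 was at 46.5 ± 6.79 CPM in CD43-KO tumours and 53.8 ± 6.00 CPM in Vec tumours. The strand setting of the counts is not given, so reads of Mrpl49 and Syvn1 in the shared stretch cannot be told apart. The same limit holds for all 15 of the 78 genes with an exon overlap on the opposite strand. They include Mrpl24 (with Rrnad1), Mrpl43 (Twnk), Mrps30 (B430218F22Rik), Mrpl18 (Tcp1) and Mrpl13 (Mtbp), whose levels are given below.

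Mrps35, a small subunit protein found only in mitochondria, was the other gene without overlap, so 2 of 78 did not overlap with lower values in CD43-KO tumours, where 3.5% of all genes tested did so. With higher values in CD43-KO tumours it was 0 of 78, where 2.08% of all genes did so. Mrps35 lies on chromosome 6, 147042764 to 147073991 (plus strand), and its level was 29.95, 31.7, 34.1, 32.5 and 33.3 CPM in CD43-KO replicates 1 to 5, against 37.4, 36.5, 38.7 and 46.4 CPM in Vec replicates 1 to 4. Its highest CD43-KO tumour, replicate 3, lay just below its lowest Vec tumour, replicate 2. The log2 fold change was -0.30 ± 0.09 (SE), with an edgeR adjusted p of 0.23, a DESeq2 adjusted p of 0.0843 and an exact permutation p of 0.00794. The name Mrps35_1 is also listed, but with few counts, at 491 in all against 19433 for Mrps35.

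Mrpl24, a large subunit protein with a bacterial relative, was at 71.2, 73.8, 87.1, 73.9 and 78.4 CPM in CD43-KO replicates 1 to 5, against 95.8, 92.8, 86.1 and 109.7 CPM in Vec replicates 1 to 4. The groups overlapped in a single pair, as CD43-KO replicate 3 lay above Vec replicate 3. The log2 fold change was -0.32 ± 0.10 (SE, edgeR adjusted p = 0.21, voom adjusted p = 0.0388). Mrpl43, found only in mitochondria, was at 42.7, 47.6, 51.6, 46.01 and 43.9 CPM in CD43-KO replicates 1 to 5, against 49.3, 56.3, 54.6 and 73.6 CPM in Vec replicates 1 to 4. Here CD43-KO replicate 3 lay above Vec replicate 1 alone. Mrps30, which sits in the large subunit, was at 65.3, 68.5, 72.1, 77.5 and 78.4 CPM in CD43-KO replicates 1 to 5, against 77.8, 81.4, 87.1 and 97.9 CPM in Vec replicates 1 to 4. Only CD43-KO replicate 5 lay above a Vec tumour, replicate 1, and CD43-KO replicate 3 did not stand apart. The log2 fold change of Mrpl43 was -0.33 ± 0.12 (SE, edgeR adjusted p = 0.263) and that of Mrps30 -0.25 ± 0.09 (SE, edgeR adjusted p = 0.274).

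Mrpl17, Mrpl23 and Mrpl28, which encode large subunit proteins with bacterial relatives, completed the 8. Mrpl17 was at 65.3, 70.99, 99.1, 75.6 and 76.6 CPM in CD43-KO replicates 1 to 5, against 86.98, 93.9, 95.9 and 132 CPM in Vec replicates 1 to 4. Mrpl23, whose bacterial relative lies at the mouth of the exit tunnel, was at 54.2, 60.9, 72.3, 60.1 and 53.8 CPM in CD43-KO replicates 1 to 5, against 71.1, 65.99, 72.6 and 92.4 CPM in Vec replicates 1 to 4. Mrpl28 was at 83.7, 86.4, 118, 94.03 and 84.7 CPM in CD43-KO replicates 1 to 5, against 106, 110.2, 105 and 163 CPM in Vec replicates 1 to 4. In all 3 genes CD43-KO replicate 3 was the highest of its group and lay within the Vec range, while the other 4 CD43-KO tumours were all below the lowest Vec tumour. Vec replicate 4 was the highest tumour of all. Mrpl17 differed by -0.40 ± 0.15 log2 (SE, edgeR adjusted p = 0.274), Mrpl23 by -0.33 ± 0.12 (0.274) and Mrpl28 by -0.38 ± 0.16 (0.297).

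**Figure D2:**
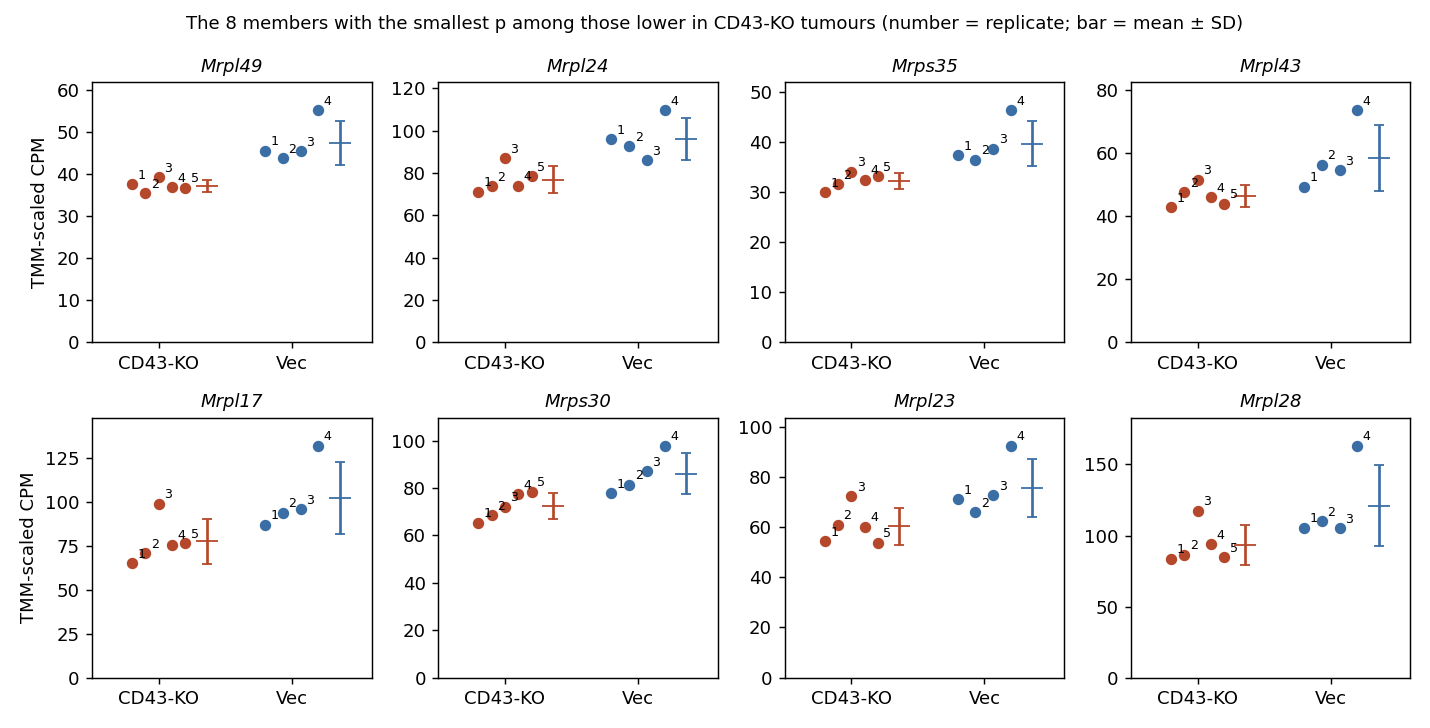
Level (y axis, TMM-scaled CPM) of the 8 genes with the smallest p among those lower in CD43-KO tumours; points are tumours numbered by replicate, bars are mean ± SD of 5 CD43-KO and 4 Vec tumours. The groups do not overlap in Mrpl49 and Mrps35, and Vec replicate 4 is the highest tumour in all 8 panels.

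Genes with higher means in CD43-KO tumours showed smaller or more scattered differences. Mrps22, a small subunit protein whose loss causes a mitochondrial disease in humans, ranged from 33.8 to 40.9 CPM in CD43-KO tumours and from 31.7 to 38.00 CPM in Vec tumours (0.11 ± 0.09 log2, edgeR adjusted p = 0.557). Mrps5, a small subunit protein with a bacterial relative, ranged from 43.9 to 50.1 CPM in CD43-KO tumours and from 42.9 to 48.4 CPM in Vec tumours. Both genes overlapped widely between the groups and varied little between tumours. Mrpl47 (0.18 ± 0.17 log2, edgeR adjusted p = 0.616) had its 2 highest values in CD43-KO replicate 3, at 38.2 CPM, and Vec replicate 3, at 33.7 CPM. Its exons overlap those of Ndufb5 and Actl6a on the opposite strand. Mrps15, Mrpl50, Mrpl18 and Mrps11 had log2 fold changes of 0.08, 0.06, 0.07 and 0.06, and each of them turned below 0 without CD43-KO replicate 3, at -0.04, -0.01, -0.07 and -0.06.

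The 3 Mrps18 genes descend from a single bacterial gene and did not have 1 pattern. Mrps18c, whose product takes the place of the bacterial protein in the small subunit, was at 34.1, 32.8, 63.7, 30.1 and 34.6 CPM in CD43-KO replicates 1 to 5, against 28.2, 27.6, 40.6 and 32.5 CPM in Vec replicates 1 to 4. CD43-KO replicate 3 alone made its mean higher, as the other CD43-KO tumours lay within the Vec range, and the log2 fold change of 0.28 ± 0.22 (edgeR adjusted p = 0.566) was 0.02 without that tumour. Mrps18a, whose product lies in the large subunit, was at 41.9, 41.5, 58.7, 48.9 and 40.1 CPM in CD43-KO replicates 1 to 5, against 43.4, 45.6, 43.1 and 66.7 CPM in Vec replicates 1 to 4. Its high tumours were CD43-KO replicate 3 and Vec replicate 4, and its log2 fold change of -0.11 ± 0.16 was 0.06 without Vec replicate 4. Mrps18b, also of the small subunit, was at 15.6, 15.7, 15.98, 17.3 and 15.3 CPM in CD43-KO replicates 1 to 5, against 14.9, 17.1, 16.3 and 21.7 CPM in Vec replicates 1 to 4. Only Vec replicate 4 stood apart, and CD43-KO replicate 3 was at the level of its group.

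The level of Mrps18b is uncertain because the table lists it under 3 names. Mrps18b, Mrps18b_1 and Mrps18b_2 had 9085, 9025 and 9065 counts in all, and in no library did a copy name differ from Mrps18b by more than 2.42%. The squared differences over the summed counts averaged 0.0744 and 0.0673 per library, far under the value near 1 that independent counts of equal mean would give, so the names appear to share reads. Mrps23_1 and Mrpl40_1 matched Mrps23 and Mrpl40 in the same way, within 1.78% and 2.09%, and Mrps10_1 and Mrpl22_1 lay within 8.15% and 11.2%. Both Mrps18b copy names had log2 fold changes of -0.14, and Mrps18b had -0.13 ± 0.12. For Mrps10_1 and Mrpl22_1 the squared differences averaged 2.94 and 4.92, above the value for independent counts of equal mean. Their totals were 0.944 and 0.920 of those of their genes, and such an offset raises the value. It therefore cannot tell whether these names share reads with their genes. Which reads the copy names hold was not tested, and the levels of all 5 genes are uncertain.

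Between genes the levels can be compared only per length of transcript, taken as the longest protein-coding transcript in GENCODE. The highest levels were those of Mrpl52 (178 CPM per kilobase), Mrpl33 (174 CPM per kilobase), Mrpl12 (152 CPM per kilobase) and Mrpl20 (142 CPM per kilobase), all of the large subunit. Mrpl52 was named after its value was seen. Mrpl12 makes the stalk of the large subunit, which contacts the translation factors. The lowest were Mrps25 (7.30 CPM per kilobase) and Mrpl47 (8.17 CPM per kilobase). Transcripts used in these tumours may be shorter than the longest one, which lowers the value of genes with a rare long form. By counts alone Mrpl12 was the most abundant, at 192 ± 40.4 CPM in CD43-KO tumours and 212 ± 43.6 CPM in Vec tumours (-0.14 ± 0.17 log2, edgeR adjusted p = 0.7). Of the next, Mrpl13 was at 133 ± 31.3 CPM in CD43-KO tumours and 138 ± 26.8 CPM in Vec tumours and Mrpl20 at 109.9 ± 33.6 CPM in CD43-KO tumours and 107 ± 23.3 CPM in Vec tumours. Mrpl2, a protein near the catalytic centre, was at 89.02 ± 5.70 CPM in CD43-KO tumours and 99.2 ± 16.9 CPM in Vec tumours (-0.16 ± 0.11 log2). The lowest counts were those of Mrps18b, Mrpl40 (16.2 ± 3.55 CPM in CD43-KO tumours and 19.02 ± 2.23 CPM in Vec tumours) and Mrpl46 (20.2 ± 4.03 CPM in CD43-KO tumours and 22.2 ± 4.18 CPM in Vec tumours).

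The spread of the 78 genes was set mainly by 2 tumours, 1 in each group. The highest tumour was CD43-KO replicate 3 in 31 genes, Vec replicate 4 in 42 and another tumour in 5. These 2 tumours also had the lowest TMM factors, 0.961 and 0.891, where the others had 0.985 to 1.06. As a share of all counts the 78 genes held 0.495% in CD43-KO replicate 3 and 0.476% in Vec replicate 4. The other tumours had 0.385% to 0.432%. The order of the 2 tumours and the size of their excess thus depend on the scaling. CD43-KO replicate 3 lay above the mean of the other CD43-KO tumours in 74 of 78 genes, by a median of 0.44 log2, and Vec replicate 4 above that of the other Vec tumours in 73 of 78, by a median of 0.35 log2. After removing the group means, pairs of the 78 genes had a median Pearson r of 0.75 over the 9 tumours, against -0.06 for pairs with other genes of like level. This is a description, since all pairs share the same libraries. The median r was 0.79 within the large, 0.62 within the small and 0.72 between the subunits.

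**Figure D3:**
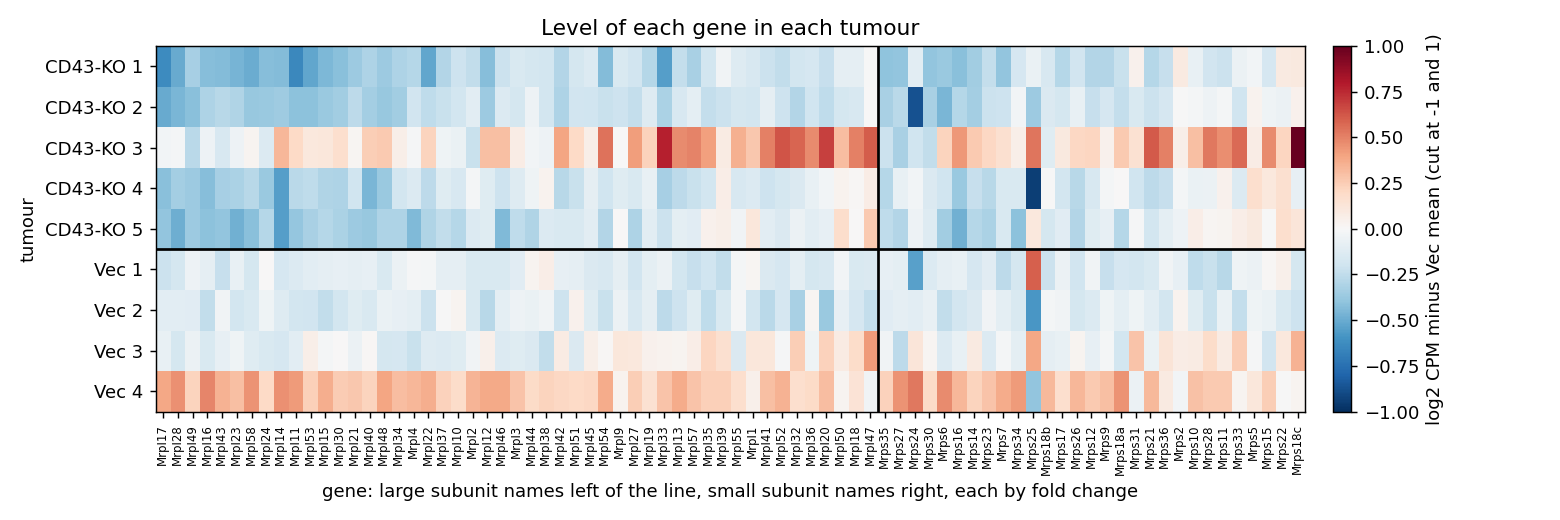
Level of each of the 78 genes (columns) in each tumour (rows), as log2 CPM minus the mean of the 4 Vec tumours, with the colour scale cut at -1 and 1. CD43-KO replicate 3 and Vec replicate 4 are above 0 in most columns, and the other CD43-KO tumours are below 0 in most.

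The genes with the largest excess differed between these tumours. In CD43-KO replicate 3 the largest excess over its group was in Mrpl33 (1.13 log2), Mrps18c (0.95), Mrps25 (0.85) and Mrps21 (0.85), and in Vec replicate 4 in Mrps24 (0.70), Mrpl16 (0.65) and Mrps6 (0.63). Mrpl33, Mrps25, Mrps21, Mrps24, Mrpl16 and Mrps6 were singled out after their values were seen. Mrpl33 was at 57.4, 67.8, 144, 66.9 and 72.4 CPM in CD43-KO replicates 1 to 5, against 80.8, 70.4, 86.1 and 103 CPM in Vec replicates 1 to 4. Over the 78 genes the excess in one tumour had a Spearman correlation of 0.12 with that in the other. Short transcripts had the larger excess in CD43-KO replicate 3, with a median of 0.60 log2 in 25 genes under 1000 bases and 0.35 in the 53 longer ones, while in Vec replicate 4 these medians were 0.40 and 0.32. The log2 fold change between the groups had medians of -0.10 in the shorter and -0.13 in the longer genes.

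At the other end, Mrps2, Mrps5 and Mrpl9 barely varied, with coefficients of variation over the 9 tumours of 4.20%, 5.48% and 7.07%, where the median of the 78 genes was 17.1% and that of other genes of like level 13.99%. Mrps2 and Mrpl9 were named after their values were seen. Mrps2 was at 37.6, 35.2, 36.8, 34.8 and 34.04 CPM in CD43-KO replicates 1 to 5, against 33.3, 36.2, 37.2 and 34.5 CPM in Vec replicates 1 to 4, so neither of the 2 high tumours stood apart. Mrps25 varied most, at 35.5%, and went its own way, with 42.3, 34.4, 64.2, 23.04 and 47.5 CPM in CD43-KO replicates 1 to 5, against 66.7, 29.4, 57.9 and 33.6 CPM in Vec replicates 1 to 4. The exons of Mrps25 overlap those of Nr2c2, a nuclear receptor gene on the opposite strand, which was at 54.9, 61.03, 18.97, 81.1 and 41.5 CPM in CD43-KO replicates 1 to 5, against 28.6, 41.9, 26.5 and 28.7 CPM in Vec replicates 1 to 4. Nr2c2 was lowest in CD43-KO replicate 3 and highest in CD43-KO replicate 4, where Mrps25 was high and lowest. What the shared stretch adds to either count was not tested.

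CD43-KO replicate 3 was also the tumour with transcripts of muscle and fat. The summed level of 12 skeletal muscle markers was 86.97, 147, 1367, 121 and 96.4 CPM in CD43-KO replicates 1 to 5, against 108, 134, 129 and 112 CPM in Vec replicates 1 to 4. That of 8 measured adipocyte markers was 40.8, 50.9, 756, 32.6 and 43.6 CPM in CD43-KO replicates 1 to 5, against 56.6, 82.9, 71.9 and 79.8 CPM in Vec replicates 1 to 4, and that of 10 leukocyte markers 1198, 1435, 2230.1, 669 and 843 CPM in CD43-KO replicates 1 to 5, against 679, 827, 915 and 872 CPM in Vec replicates 1 to 4. CD43-KO replicate 3 was the highest in all 3 lists, while Vec replicate 4 was at the level of its group in each. CD43-KO replicate 3 also had the lowest total count, 44814061, where the other tumours had 56536981 to 72114385. All 10 leukocyte, 11 of 12 muscle, 7 of 8 adipocyte, 6 of 9 fibroblast and 7 of 7 endothelial markers had log2 fold changes above 0. For muscle and fat this rested on CD43-KO replicate 3. The mean score over the CD43-KO tumours (log2 CPM minus the Vec mean, averaged over the list) was 0.48 for muscle and -0.40 for adipocyte markers, and without that tumour it was -0.22 and -1.38. For leukocyte markers it was 0.55, and 0.30 without that tumour. The part of these cells and of depth in the levels of the 78 genes was not tested. Of 10 epithelial markers Cdx2 was at 0 in every tumour and Krt8 and Krt18 reached no more than 0.149 and 0.203 CPM, so the carcinoma cells cannot be followed by them, and Cdh1 ranged from 6.42 to 14.8 CPM in CD43-KO tumours and from 7.96 to 13.6 CPM in Vec tumours.

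Without CD43-KO replicate 3 more of the 78 genes were low in CD43-KO tumours, though still none passed. At an unadjusted edgeR p under 0.05 there were 31 of 78 with a lower mean, 23 of the large and 8 of the small subunit, where 10.6% of all genes were lower, and 0 with a higher mean. In 27 of 78 the remaining 4 CD43-KO tumours lay below all Vec tumours, where 7.58% of genes did so. The median log2 fold change was -0.22, against 0.01 over all genes, and 74 of 78 lay below 0. The smallest adjusted p was 0.101, for Mrpl24. Leaving out Vec replicate 4, the other high tumour, gave 4 of 78 with a lower mean at an unadjusted p under 0.05, where 5.54% of all genes were lower, and a median of -0.04. Leaving out both, an alternative chosen after the values were seen, gave 22 of 78, where 8.39% of all genes were lower, and a median of -0.12. The count of 8 became 13 when Vec replicate 3 was left out, where 8.97% of all genes were lower. It became 4 without CD43-KO replicate 1 and 5 without CD43-KO replicate 2, where 5.94% and 5.98% of all genes were lower, so these counts were near the background.

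The large subunit names stood slightly lower relative to the small subunit names in CD43-KO tumours. The median log2 fold change was -0.13 in large and -0.12 in small subunit names, and 44 of 49 large and 20 of 29 small subunit names lay below 0. The mean log2 CPM of the large minus that of the small subunit names was 0.32, 0.36, 0.41, 0.36 and 0.33 in CD43-KO replicates 1 to 5, against 0.43, 0.41, 0.38 and 0.47 in Vec replicates 1 to 4. CD43-KO replicate 3 lay above Vec replicate 3, and the remaining CD43-KO values were under all Vec values. The means were 0.36 ± 0.04 in CD43-KO and 0.42 ± 0.04 in Vec tumours (SD, n = 5 and 4). With Mrps18a and Mrps30 counted in the large subunit, where their products lie, the means were 0.40 ± 0.03 in CD43-KO and 0.48 ± 0.04 in Vec tumours. Mrps36 was kept among the small subunit genes in all these values, although its product is placed outside the ribosome. The mean log2 CPM of large subunit names was 5.66 ± 0.21 in CD43-KO and 5.81 ± 0.19 in Vec tumours, and that of small subunit names 5.30 ± 0.18 in CD43-KO and 5.38 ± 0.16 in Vec tumours, so both differences were smaller than the spread within a group.

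**Figure D4:**
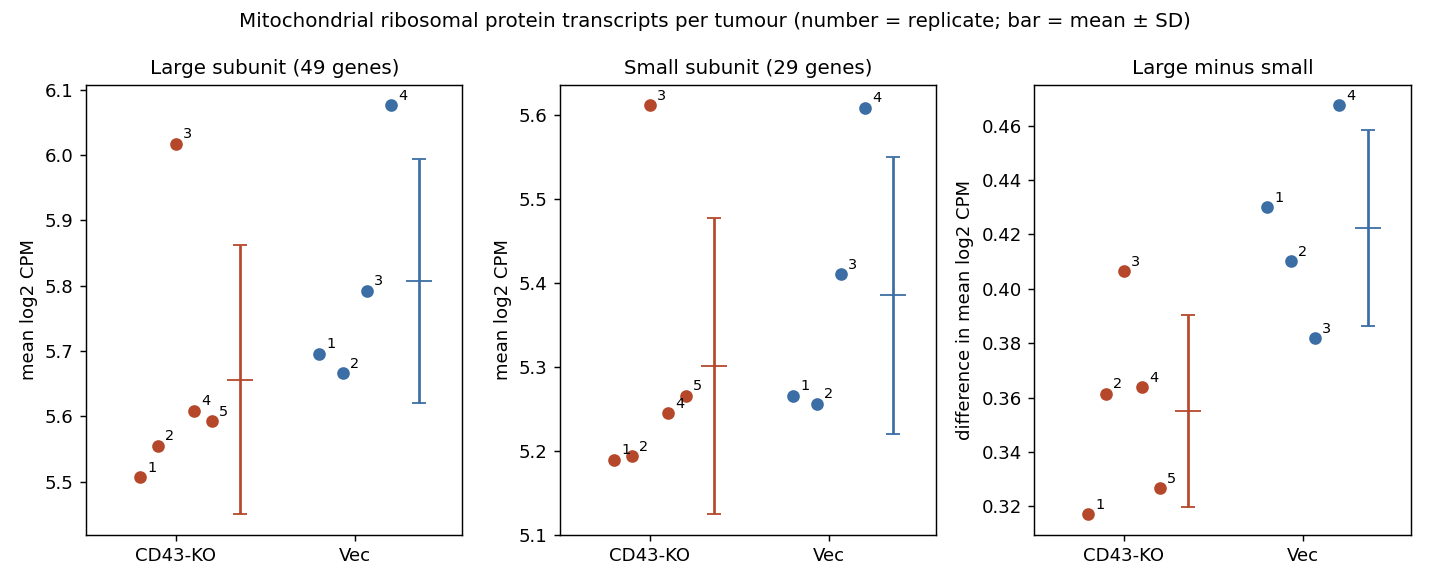
Mean log2 CPM (y axis) of the 49 large and 29 small subunit names and their difference in each tumour; points are tumours numbered by replicate, bars are mean ± SD of 5 CD43-KO and 4 Vec tumours. CD43-KO replicate 3 and Vec replicate 4 are the highest of their groups in all 3 panels.

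Genes whose product holds the place of a bacterial ribosomal protein and the remaining genes had similar medians. This grouping was made from general knowledge after the values were seen, and Mrps18a and Mrps18b were put in the second set although they are related to the bacterial gene. Of the 45 in the first set 34 lay below 0 with a median of -0.13, and of the 33 in the second 30 lay below 0 with a median of -0.12. Each set held 4 of the 8 genes lower at an unadjusted p under 0.05. The small subunit genes of the first set were the most divided, with 9 of 16 below 0 and a median of -0.07.

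The 5 genes on chromosome 19 were all of the large subunit, and all lay below 0. They were Mrpl49, Mrpl43, Mrpl16, Mrpl11 and Mrpl21, with log2 fold changes from -0.35 to -0.24 and a median of -0.33, and the last 3 were named after their values were seen. Other protein-coding genes on chromosome 19 also had lower levels in CD43-KO tumours, as 68.4% of 484 lay below 0, with a median of -0.12, and 22.5% were lower at an unadjusted edgeR p under 0.05. On the other autosomes and X the medians ran from -0.01 to 0.10 and the shares from 5.07% to 10.6%. Without these 5 genes, a choice made after the values were seen, 59 of 73 lay below 0 with a median of -0.11. At an unadjusted p under 0.05, 6 of 73 were lower, where 7.63% of all genes were, so this count was near the background. The difference between the subunits without these genes was 0.39 ± 0.04 in CD43-KO and 0.44 ± 0.03 in Vec tumours. CD43-KO replicate 3, at 0.46, then lay above Vec replicates 1, 2 and 3, at 0.45, 0.43 and 0.41. The remaining CD43-KO values were still under all Vec values. The large minus the small median log2 fold change turned to 0.0068, against -0.02 with these genes. On chromosome 11, which held the most genes, all 11 lay below 0, from -0.32 to -0.02, where other genes had a median of 0.0074.

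**Figure D5:**
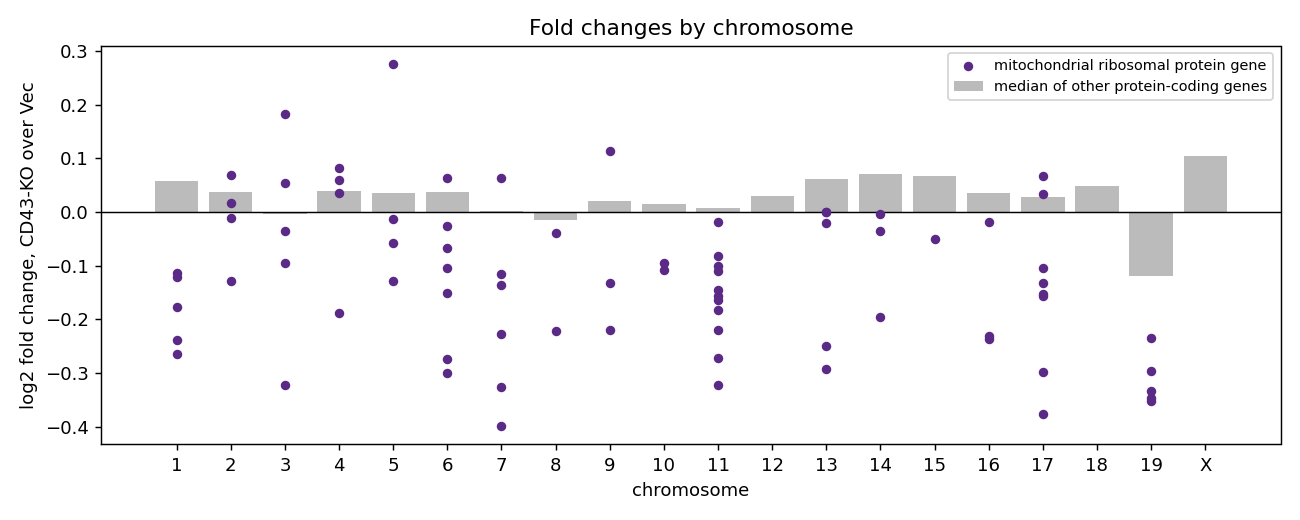
Log2 fold change (y axis, CD43-KO over Vec) of each of the 78 genes by chromosome (x axis, points), over the median of the other protein-coding genes on that chromosome (bars). On chromosome 19 all 5 points lie between -0.35 and -0.24 and the bar is at -0.12.

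Many of the 78 genes start close to another gene that runs the opposite way. In 23 of 78, or 29.5%, a protein-coding gene started within 1000 bases upstream, or up to 200 bases inside, on the opposite strand, against 8.04% of 20800 protein-coding genes. Partners included Psma2, a proteasome subunit gene, for Mrpl32, Ndufs6, a subunit gene of respiratory complex I, for Mrpl36, and Sars2, the mitochondrial seryl-tRNA synthetase gene, for Mrps12. After removing the group means, gene and partner had a median Pearson r of -0.01 over the 9 tumours, with 10 of 23 above 0. The extremes among them were Mrpl32 with Psma2 at 0.95 and Mrpl40 with Hira at -0.88, a description over shared libraries. Mrpl49 and Fau, at 0.89, were among the pairs that went together. The starts used here were the outer bounds of each gene in GENCODE. By these bounds Mrpl46 and Mrps11, on opposite strands of chromosome 7, overlap by more than 200 bases and were not counted. By their RefSeq starts they run head to head, and their upstream stretches overlap (78783090-78783339 and 78782881-78783130). Their log2 fold changes were -0.14 and 0.06.

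Other genes of mitochondrial translation had medians between -0.15 and 0.0042. Of 5 mitochondrial ribosomal proteins with other names, 3 lay below 0, with Gadd45gip1 at 109 ± 13.6 CPM in CD43-KO tumours and 129 ± 24.6 CPM in Vec tumours and Aurkaip1 at 101 ± 18.4 CPM in CD43-KO tumours and 112 ± 15.2 CPM in Vec tumours. Dap3, named after its values were seen, is a small subunit protein that binds GTP and was at 77.7, 81.6, 86.4, 94.5 and 88.3 CPM in CD43-KO replicates 1 to 5, against 98.9, 100.2, 99.1 and 127 CPM in Vec replicates 1 to 4 (-0.31 ± 0.10 log2, edgeR adjusted p = 0.238). Its groups did not overlap. Of 25 genes of ribosome assembly and ribosomal RNA modification, 16 lay below 0 with a median of -0.11. At an unadjusted p under 0.05, 4 were lower and 0 higher, where 7.63% and 7.75% of all genes were. In 4 of the 25 every CD43-KO tumour lay below every Vec tumour, where 3.5% of all genes did so. In 0 of the 25 every CD43-KO tumour lay above, where 2.08% did so. The most abundant of the 25 were Dhx30, a helicase, at 82.3 ± 12.2 CPM in CD43-KO tumours and 80.6 ± 2.39 CPM in Vec tumours, and Ngrn at 42.3 ± 1.35 CPM in CD43-KO tumours and 45.7 ± 0.655 CPM in Vec tumours. Of 16 translation factors 8 lay below 0, with 3 lower at an unadjusted p under 0.05, where 7.63% of all genes were lower. Tufm, the elongation factor that delivers tRNA, was at 79.6 ± 6.97 CPM in CD43-KO tumours and 90.2 ± 15.4 CPM in Vec tumours. Lrpprc, which stabilises mitochondrial messenger RNA, was at 87.3 ± 8.70 CPM in CD43-KO tumours and 77.6 ± 2.64 CPM in Vec tumours. Of 17 mitochondrial aminoacyl-tRNA synthetases 8 lay below 0, with a median of 0.0042, Tars2 at 69.1 ± 4.51 CPM in CD43-KO tumours and 73.1 ± 6.51 CPM in Vec tumours and Iars2 at 57.1 ± 4.31 CPM in CD43-KO tumours and 55.4 ± 1.55 CPM in Vec tumours. No gene in any of these lists passed the edgeR test over all genes. DESeq2 called 1 gene each of the assembly and translation factor lists lower, where it called 2.18% of genes lower.

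Cytosolic ribosomal proteins lay further below 0 than those of the mitochondrion. Of 85 measured, 78 lay below 0 with a median of -0.36. At an unadjusted edgeR p under 0.05, 47 were lower and 1 higher, where 7.63% and 7.75% of all genes were. After adjustment 0 passed, and DESeq2 called 19 lower, where it called 2.18% of genes lower. The list score, the mean log2 CPM minus its Vec mean, was -0.53, -0.43, 0.11, -0.34 and -0.38 in CD43-KO replicates 1 to 5, against -0.10, -0.22, 0.02 and 0.29 in Vec replicates 1 to 4. That of the 78 mitochondrial ribosomal genes was -0.26, -0.23, 0.22, -0.18 and -0.18 in CD43-KO replicates 1 to 5, against -0.11, -0.14, -0.00 and 0.25 in Vec replicates 1 to 4. Only CD43-KO replicate 3 reached into the Vec range in both lists. Rpl13a, the most abundant, was at 3720.4 ± 485 CPM in CD43-KO tumours and 5295 ± 954 CPM in Vec tumours, and Rps2 at 3578 ± 469 CPM in CD43-KO tumours and 4277 ± 618 CPM in Vec tumours. Many of these genes have pseudogenes whose reads may be shared.

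Subunits of the respiratory chain, which the mitochondrial ribosome serves, had medians nearer 0 with all tumours included. Of 36 genes of complex I 20 lay below 0 with a median of -0.05, and of 40 genes of complexes II to V 26 with a median of -0.07. At an unadjusted edgeR p under 0.05, 5 and 1 were lower, where 7.63% of all genes were lower. The scores of complex I were -0.24, -0.15, 0.44, -0.25 and -0.14 in CD43-KO replicates 1 to 5, against -0.15, -0.15, 0.04 and 0.26 in Vec replicates 1 to 4. Here too CD43-KO replicate 3 and Vec replicate 4 were the high tumours, at 0.44 and 0.26. The mean CD43-KO score was -0.07 for complex I, -0.04 for complexes II to V and -0.13 for the mitochondrial ribosomal genes. Without CD43-KO replicate 3 these means were -0.19, -0.18 and -0.21, so the contrast between the lists rested largely on that tumour. Ndufb8 of complex I was at 161 ± 32.3 CPM in CD43-KO tumours and 209 ± 41.1 CPM in Vec tumours. Atp5b of the ATP synthase was at 1015 ± 34.5 CPM in CD43-KO tumours and 1091 ± 115 CPM in Vec tumours, and Cox4i1 of complex IV at 549.4 ± 144 CPM in CD43-KO tumours and 669.7 ± 149 CPM in Vec tumours. Of 12 measured regulators of mitochondrial gene expression 4 lay below 0 with a median of 0.12, and 0 had an unadjusted p under 0.05. Myc, which drives ribosome production, was at 163 ± 29.1 CPM in CD43-KO tumours and 137 ± 17.6 CPM in Vec tumours, and Yy1 at 133 ± 4.17 CPM in CD43-KO tumours and 143 ± 1.77 CPM in Vec tumours. Of 16 proliferation genes 7 lay below 0, with a median of 0.02, and Top2a was at 814 ± 69.1 CPM in CD43-KO tumours and 686 ± 59.4 CPM in Vec tumours and Pcna at 416 ± 52.7 CPM in CD43-KO tumours and 388 ± 51.4 CPM in Vec tumours.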

How the data were processed

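The authors deposited whole-number counts per gene name for each of 9 libraries, made from total RNA of tumour tissue (per the labels' protocols, TRIzol extraction and a NEBNext Ultra RNA kit). Per the submitters' processing notes the tools were StringTie 1.3.5, HISAT2 2.1.0 and DESeq2, on GRCm38, without a stated role or order. A counting step, an annotation and a strand setting were not given in the sources used here. Total counts ran from 44814061 to 62194418 in CD43-KO and from 60751738 to 72114385 in Vec libraries, and the 78 genes held 0.385% to 0.495% of a library.

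The analysis used edgeR 4.0.16 in R 4.3.3 (filterByExpr with minimum count 10 and total 15, TMM factors, robust quasi-likelihood F test on the group alone), DESeq2 1.42.0 and limma 3.58.1. Levels are TMM-scaled CPM, and log2 CPM used a prior count of 2. The edgeR step was tested on simulated data with independent genes and changes larger than any in the 78 genes. That test does not bear on changes as small as theirs. Standard errors are the log2 fold change over the square root of F. Alternatives were other tools, size factors, filters and leaving out each tumour. Coordinates are from GENCODE M21, and all 78 symbols matched.

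The NRF-1 and YY1 letters were shortened after a first search with longer forms. The genes and lists were chosen with earlier results of these data known. Genes named were the 8 with the smallest p in each direction, the 5 most and 3 least abundant, the Mrps18 genes, those without overlap and, in other lists, the 2 most abundant, of which 1 is not reported here.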

Additional observations from a re-analysis of the deposited data

Results flagged for a closer look

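In 54 groups of tumours tested for a single value far from the rest (24 named genes and 3 subunit measures, in 2 groups each), 11 had one, where chance flags about 1 in 20. All 11 were the highest value of CD43-KO replicate 3 or Vec replicate 4. In CD43-KO replicate 3 Mrps18c was at 63.7 CPM, with the next CD43-KO tumour at 34.6 CPM. Mrpl18 was at 102 CPM there, Mrpl13 at 188 CPM, Mrpl20 at 169 CPM and Mrpl40 at 22.5 CPM, with next values of 72.5, 127, 103 and 15.3 CPM. The mean log2 CPM of the large subunit names was 6.02 in CD43-KO replicate 3 and 5.61 in the next tumour, and that of the small subunit names 5.61 and 5.27. In Vec replicate 4 Mrpl49 was at 55.1 CPM, Mrpl28 at 163 CPM, Mrpl46 at 28.4 CPM and Mrps18a at 66.7 CPM, with next values of 45.5, 110.2, 20.5 and 45.6 CPM. The genes are not independent, so these are 2 tumours and not 11 events.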

How the results depend on the processing

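The medians of the 78 genes and of either subunit stayed below 0 in every alternative run. The median of all 78 was between -0.22 (without CD43-KO replicate 3) and -0.04 (without Vec replicate 4) when single tumours were left out and between -0.13 and -0.04 otherwise, the highest of these with library totals as the only scaling. That scaling moved the median of all genes to 0.11, so the distance between the 2 medians stayed close to that under TMM. The large subunit median ran from -0.24 to -0.04, the small from -0.21 to -0.01 and their difference from -0.05 to -0.01, except 0.0068 without the chromosome 19 genes. The count of genes called was 0 of 78 with edgeR in every setting, against 1 with DESeq2 and 2 with voom, and over all genes it was 612, 562 and, with no filter, 1, and between 0 and 29 when single tumours were left out. The 8 genes lower at an unadjusted p under 0.05 became 24 with voom, 22 without CD43-KO replicate 3 and Vec replicate 4, and 4 to 31 when single tumours were left out. Over all genes the share lower, 7.63% under the edgeR test, was then 12.4%, 8.39% and 5.54% to 10.6%. Named genes that changed sign had log2 fold changes from -0.11 (Mrps18a) to 0.08 (Mrps15) in the main fit, and some ran further in the alternatives. Mrps15 was at -0.0025 with voom and Mrpl13 at 0.037 with library totals, and without both high tumours Mrpl50, Mrpl18 and Mrpl20 were at -0.0048, -0.024 and -0.070. With single tumours left out, Mrps15 ran from -0.040 to 0.16, Mrpl50 from -0.015 to 0.12, Mrpl18 from -0.070 to 0.12, Mrps11 from -0.058 to 0.15, Mrpl13 from -0.21 to 0.079, Mrpl20 from -0.18 to 0.13 and Mrps18a from -0.21 to 0.061. The causes were not tested. No paired analysis was possible because the labels give no replicate numbers that link tumours across the groups. The median standard error of the 78 log2 fold changes was 0.14, about the size of their median.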
